A study of Rattus norvegicus with 24 samples.

Results

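Transcripts of 69 axon guidance ligands and receptors were followed in the striatum and the substantia nigra of rats with and without a dopamine lesion and levodopa-induced dyskinesia. The members were taken by symbol and not by their levels, but the set was chosen with earlier results of these data known. They are the class 3 to 7 semaphorins, the plexins and neuropilins, the ephrins and Eph receptors, Slit and Robo, and the netrins with Dcc and the Unc5 receptors, among 16582 genes that had a probe set of their own on the arrays. By family they comprise 20 semaphorins, 10 plexins and neuropilins, 7 ephrins, 13 Eph receptors, 7 Slit and Robo genes and 12 genes under netrin and Unc5 symbols. Unc50 and Unc5cl share letters with the netrin receptors and are not known as such, so they were set apart from the 36 ligands and 31 receptors. Each gene's value is the mean log2 value of the probe sets that name it alone, which number 2 to 40 per member with a median of 17.

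The rats were adult male Sprague Dawley animals, and punches were taken from the lateral striatum and the substantia nigra. Dyskinetic rats carried a one-sided lesion made with 6-hydroxydopamine, a toxin that kills dopamine neurons, received daily levodopa from 3.5 weeks after surgery, and developed abnormal involuntary movements. Non-dyskinetic rats had the same toxin and levodopa and did not develop them. Vehicle rats had the toxin and saline injections in place of levodopa, and intact rats had a saline injection in place of the toxin and did receive levodopa. No group was free of both toxin and levodopa, and the 2 levodopa-treated lesioned groups were told apart by their behaviour and not by assignment. A lesion was accepted where striatal dopamine had dropped by more than 90%. The loss in each animal, the side punched, the levodopa dose and the time from the last dose to death are not given in the sources used here. Each tissue had 4 groups of 3 arrays, each array being 1 animal, and 10 of the 14 animals gave both tissues.

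Axon guidance molecules are cell-surface and secreted proteins that steer growing axons by attraction or repulsion. Semaphorins act through plexins, which the class 3 members reach with neuropilins as coreceptors. Ephrins bind Eph receptor tyrosine kinases on neighbouring cells, and the B-class ephrins signal back into the cell that carries them. Slits repel axons through Robo receptors, and netrins attract through Dcc and repel through Unc5 receptors. In the developing brain these systems lay out the paths between striatum and midbrain, and in the adult many of them remain at synapses, where they take part in the shaping of dendritic spines.

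The punches carried the markers of their tissues. Ppp1r1b, which encodes the striatal phosphoprotein DARPP-32, lay between 11.95 and 12.18 in striatum and between 9.18 and 10.38 in nigra, while Th, whose enzyme limits the rate at which dopamine is made, lay between 6.02 and 7.77 in striatum and between 10.21 and 13.50 in nigra. A pair of nigral vehicle arrays stood apart from the others. In vehicle array 1 the mean of 6 markers of striatal projection neurons was 9.75, against 8.56 to 8.83 in the nigral arrays of the other groups and 8.79 and 8.81 in the remaining vehicle arrays. In vehicle array 3 the mean of 2 cortical neuron markers was 8.35, against 5.95 to 6.36 in the other 11 nigral arrays. In the same array the semaphorin coreceptor Nrp2 stood at 9.79, against 7.28 to 8.07 in the others, and the repellent Slit2 at 9.06, against 7.63 to 8.11. The same array stood apart in 6 pericyte and meningeal markers, with a mean of 9.46 against 8.57 to 8.89 in the other 11. Counts of members and related genes that use these arrays are given with and without both, the latter fit leaving 1 vehicle array. Counts of cell type markers in comparisons with vehicle nigra include both arrays, as do those of immediate early genes against intact nigra. In tissue punches, fewer cells of a type and less RNA per cell cannot be told apart.

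Differences were fitted with limma over the 12 arrays of a tissue and p was adjusted over 12436 genes, the lowest 25% by mean being left out. Of the members 67 were tested in striatum, where Robo3 and Epha1 fell below that level, and 65 in nigra, where Sema3a and Ntn5 did so too. A difference counts as called at an adjusted p under 0.05, and the value after ± is its standard error, or the SD of 3 arrays beside a group mean. A log2 difference of 1 is a doubling.

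**Figure D1:**
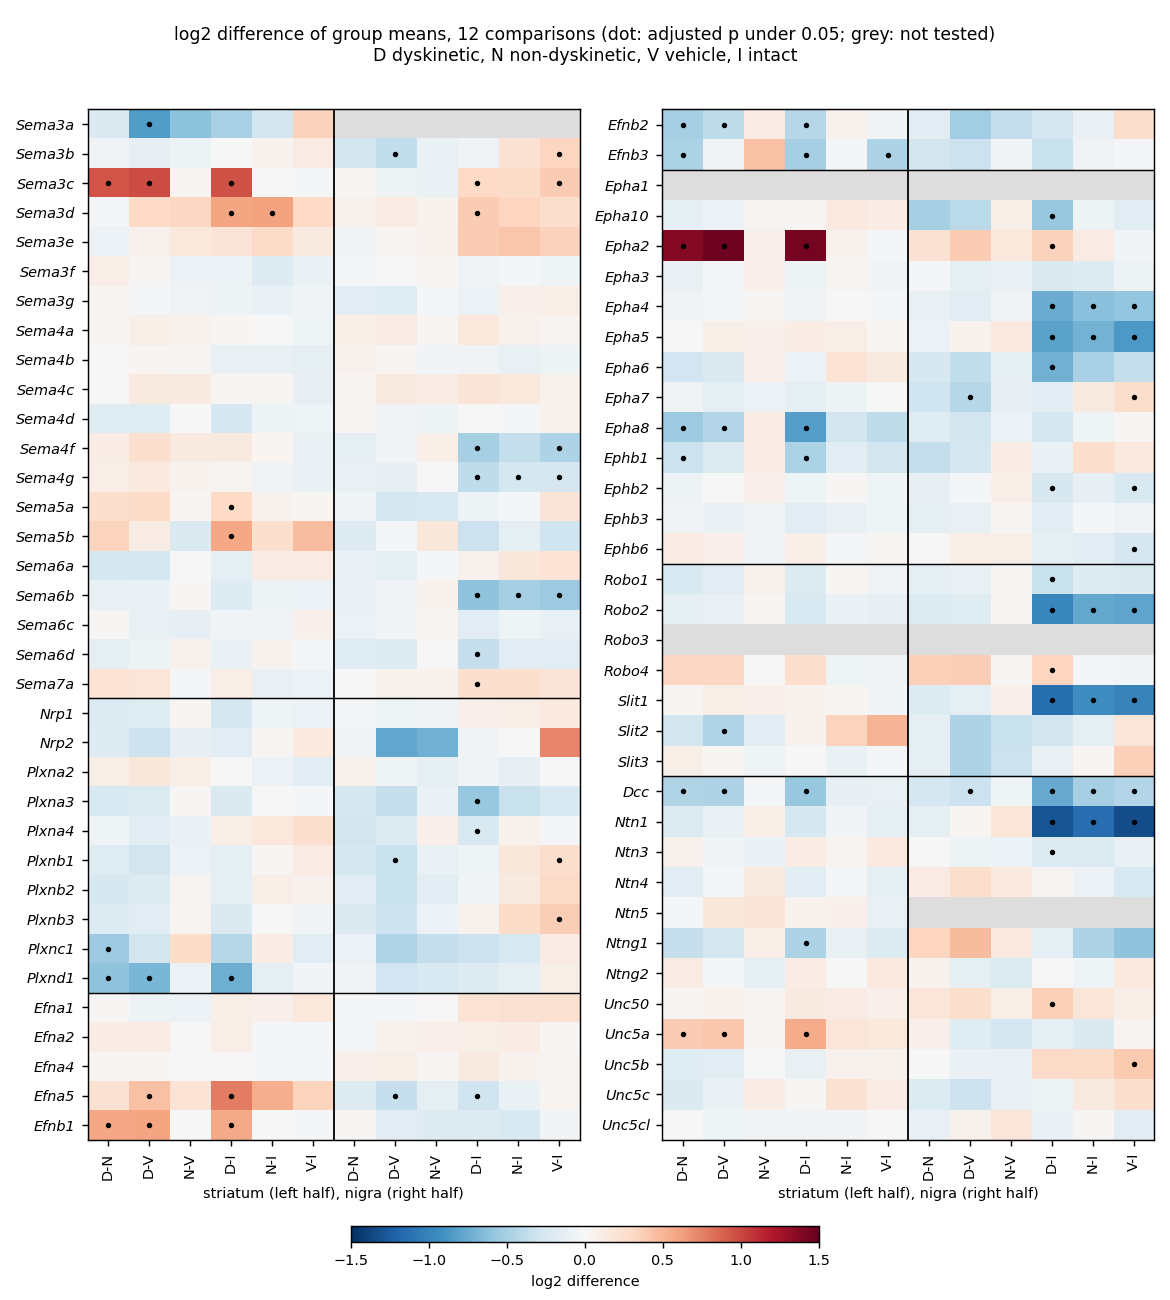
Log2 differences of group means for all 69 members in 6 comparisons per tissue, grouped by family, on a colour scale from -1.5 to 1.5. Dots mark an adjusted p under 0.05 and grey marks members not tested. In striatum the dots stand mainly in the columns that involve dyskinetic rats, and in nigra mainly in those against intact rats.

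Dyskinetic striatum differed from non-dyskinetic striatum, at the same toxin and drug, in 11 of the 67 tested members. Of these 4 were higher and 7 lower. The share was 16.4%, beside 5.26% of all genes tested, of which 3.06% were higher and 2.2% lower. The 4 higher members were the receptors Epha2 and Unc5a and the ligands Sema3c and Efnb1, and the 7 lower ones were the ligands Efnb2 and Efnb3 and the receptors Epha8, Ephb1, Plxnc1, Plxnd1 and Dcc. By role, 2 ligands were higher and 2 lower of 36 tested, and 2 receptors higher and 5 lower of 29. The median difference was -0.05 over the members and -0.03 over all genes. The extent of the lesion in each animal is not given, and its part in these differences was not tested.

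Among the ephrin system, Epha2, a receptor tyrosine kinase that binds A-class ephrins, had the largest difference of any member. Its log2 values were 7.97, 7.71 and 7.34 in dyskinetic rats, 6.45, 6.11 and 6.31 in non-dyskinetic rats, 6.11, 6.23 and 6.32 in vehicle rats and 6.31, 6.17 and 6.25 in intact rats. All 3 dyskinetic arrays lay far above the other 9, which overlapped one another. The difference from non-dyskinetic striatum was 1.38 ± 0.13, adjusted p = 2.7e-05, from vehicle 1.46 ± 0.13, adjusted p = 1.23e-05 and from intact 1.43 ± 0.13, adjusted p = 7.1e-06, and 16 of its 16 probe sets were higher in dyskinetic than in non-dyskinetic striatum. Epha8, another receptor of the A class, went the other way, with 7.77, 7.84 and 7.85 in dyskinetic rats, 8.16, 8.55 and 8.40 in non-dyskinetic rats, 8.25, 8.24 and 8.28 in vehicle rats and 8.67, 8.70 and 8.55 in intact rats. The dyskinetic arrays were below all others, and the 3 intact arrays were above all others, the lowest of them only just above 1 non-dyskinetic array. It was lower by -0.55 ± 0.09, adjusted p = 0.00177 against non-dyskinetic, -0.44 ± 0.09, adjusted p = 0.00791 against vehicle and -0.82 ± 0.09, adjusted p = 2.81e-05 against intact striatum.

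The 3 B-class ephrins, membrane-spanning ligands of the EphB receptors, moved in different directions. Efnb1 measured 8.05, 7.93 and 7.69 in dyskinetic rats, 7.43, 7.17 and 7.33 in non-dyskinetic rats, 7.13, 7.42 and 7.36 in vehicle rats and 7.40, 7.37 and 7.20 in intact rats, with dyskinetic arrays above all 9 others. Its differences were 0.58 ± 0.11, adjusted p = 0.00486 against non-dyskinetic, 0.59 ± 0.11, adjusted p = 0.00365 against vehicle and 0.57 ± 0.11, adjusted p = 0.00302 against intact striatum. Efnb2 measured 8.77, 8.56 and 8.65 in dyskinetic rats, 9.07, 9.17 and 9.23 in non-dyskinetic rats, 9.12, 9.05 and 8.97 in vehicle rats and 9.24, 9.05 and 8.98 in intact rats, with dyskinetic arrays below all others and the remaining groups overlapping. Its differences were -0.50 ± 0.09, adjusted p = 0.00311, -0.39 ± 0.09, adjusted p = 0.0152 and -0.43 ± 0.09, adjusted p = 0.00501 against non-dyskinetic, vehicle and intact striatum in that order. Efnb3 had a pattern of its own, with 8.70, 8.45 and 8.61 in dyskinetic rats, 9.02, 9.06 and 9.12 in non-dyskinetic rats, 8.63, 8.53 and 8.70 in vehicle rats and 9.15, 8.96 and 9.14 in intact rats. Dyskinetic and vehicle arrays overlapped at the low end, and non-dyskinetic and intact arrays overlapped at the high end. It was lower in dyskinetic than in non-dyskinetic striatum by -0.48 ± 0.08, adjusted p = 0.00332, lower in dyskinetic than in intact striatum by -0.50 ± 0.08, adjusted p = 0.0013 and lower in vehicle than in intact striatum by -0.46 ± 0.08, adjusted p = 0.0199. The receptor Ephb1 measured 9.16, 9.13 and 9.21 in dyskinetic rats, 9.34, 9.53 and 9.57 in non-dyskinetic rats, 9.40, 9.28 and 9.41 in vehicle rats and 9.68, 9.58 and 9.66 in intact rats, lowest in the dyskinetic and highest in the intact arrays. It was called against non-dyskinetic (-0.32 ± 0.08, adjusted p = 0.0239) and intact striatum (-0.48 ± 0.08, adjusted p = 0.000903), and the first call was lost in 4 of 6 fits that left out 1 array.

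Promoter sequences are shown for Epha2, Epha8, Efnb1 and Efnb2, the members that were called in dyskinetic striatum against each other group and whose RefSeq window ends at the annotated start of the gene. Each is the 250 bases before the start in rat assembly GRCr8, at chr5:158888379-158888628 (plus strand), chr5:154476967-154477216 (minus), chrX:68297279-68297528 (plus) and chr16:87484965-87485214 (plus), written 5′ to 3′. Capitals mark a match to the cyclic AMP response element TGACGTCA in Epha2 and to the Egr motif GCGNGGGCG in Epha8.
Epha2: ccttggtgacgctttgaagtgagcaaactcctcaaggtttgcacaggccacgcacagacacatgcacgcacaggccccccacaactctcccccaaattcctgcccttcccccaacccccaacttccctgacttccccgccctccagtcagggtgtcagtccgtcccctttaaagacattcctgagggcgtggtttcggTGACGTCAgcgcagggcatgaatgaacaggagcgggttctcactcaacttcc
Epha8: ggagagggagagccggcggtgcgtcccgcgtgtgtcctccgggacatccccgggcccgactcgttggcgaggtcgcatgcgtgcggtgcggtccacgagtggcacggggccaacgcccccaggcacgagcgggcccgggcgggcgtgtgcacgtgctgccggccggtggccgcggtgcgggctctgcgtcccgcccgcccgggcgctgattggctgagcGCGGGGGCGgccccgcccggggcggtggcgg
Efnb1: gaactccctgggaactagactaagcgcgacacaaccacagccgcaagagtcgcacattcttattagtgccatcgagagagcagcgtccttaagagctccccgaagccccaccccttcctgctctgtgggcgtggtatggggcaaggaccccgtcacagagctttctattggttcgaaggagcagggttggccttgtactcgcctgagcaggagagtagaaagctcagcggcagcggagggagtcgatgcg
Efnb2: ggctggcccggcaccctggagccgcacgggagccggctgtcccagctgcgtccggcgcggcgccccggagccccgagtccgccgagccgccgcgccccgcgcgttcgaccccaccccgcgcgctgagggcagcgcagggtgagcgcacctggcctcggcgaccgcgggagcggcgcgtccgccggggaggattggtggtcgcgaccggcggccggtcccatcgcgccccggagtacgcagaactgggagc
These motifs and the AP-1 motif TGANTCA and the Nr4a motif AAAGGTCA were searched on both strands, since factors that bind them are induced or activated by neuronal activity. The response element lies at -52 to -45 from the start in Epha2, the only 1 of 56 members with a window that holds it, beside 1.59% of 33469 windows of this length. The Egr motif lies at -31 to -23 in Epha8, and 7 of the 56 members hold it, beside 4.29% of all windows. The others are Epha1, Efna1, Plxna2, Plxnb2, Sema6d and Plxnc1, the last of which is given among the lower members below. The AP-1 motif was found in 1 member, Epha10, beside 6.34% of windows, and the Nr4a motif in 0, beside 1.24%. Members were counted as genes, by any window of theirs, and the background as single windows, so the shares are not in like units. GC content was 58.4% in Epha2 and in Efnb1, 80.0% in Epha8 and 80.4% in Efnb2, against a median of 51.2% over all windows. A match describes these letters and is no evidence that a factor binds.

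In the semaphorin system, the secreted ligand Sema3c measured 7.31, 7.42 and 6.96 in dyskinetic rats, 6.41, 6.20 and 6.24 in non-dyskinetic rats, 6.34, 6.25 and 6.19 in vehicle rats and 6.37, 6.26 and 6.20 in intact rats. Its dyskinetic arrays lay above all 9 others, which overlapped. Sema3c is dim as well, its mean over the 12 striatal arrays standing at percentile 29.9 of all genes. It was higher by 0.95 ± 0.11, adjusted p = 0.000102 against non-dyskinetic, 0.98 ± 0.11, adjusted p = 5.7e-05 against vehicle and 0.96 ± 0.11, adjusted p = 3.61e-05 against intact striatum. Plxnd1, a receptor that in mouse binds Sema3e and is found on striatal projection neurons of the direct pathway, measured 8.37, 8.11 and 8.31 in dyskinetic rats, 8.80, 8.93 and 8.88 in non-dyskinetic rats, 8.93, 8.93 and 9.00 in vehicle rats and 9.09, 8.94 and 8.97 in intact rats. Dyskinetic arrays were below all others. The differences were -0.60 ± 0.08, adjusted p = 0.000424 against non-dyskinetic, -0.69 ± 0.08, adjusted p = 0.000113 against vehicle and -0.73 ± 0.08, adjusted p = 3.23e-05 against intact striatum, and 38 of 40 probe sets were lower in dyskinetic than in non-dyskinetic striatum. Plxnc1, the receptor of Sema7a, measured 7.41, 7.29 and 7.38 in dyskinetic and 8.04, 7.53 and 8.14 in non-dyskinetic striatum, a difference of -0.54 ± 0.14, adjusted p = 0.033. That call was lost in 5 of 6 fits without 1 array.

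In the netrin system, the attractive receptor Dcc and the repulsive receptor Unc5a differed in opposite directions. Dcc measured 9.47, 9.37 and 9.56 in dyskinetic rats, 9.83, 9.91 and 10.01 in non-dyskinetic rats, 9.97, 9.91 and 9.92 in vehicle rats and 10.04, 10.11 and 9.96 in intact rats, with dyskinetic arrays below all others. It was lower by -0.45 ± 0.08, adjusted p = 0.00257 against non-dyskinetic, -0.47 ± 0.08, adjusted p = 0.00164 against vehicle and -0.57 ± 0.08, adjusted p = 0.00019 against intact striatum, and 30 of 30 probe sets were lower than in non-dyskinetic rats. Unc5a measured 9.42, 9.32 and 9.20 in dyskinetic rats, 8.88, 8.94 and 8.99 in non-dyskinetic rats, 8.89, 8.94 and 8.90 in vehicle rats and 8.80, 8.81 and 8.66 in intact rats. Dyskinetic arrays were the highest and intact arrays the lowest, without overlap with the other groups. Its differences were 0.38 ± 0.08, adjusted p = 0.00833 against non-dyskinetic, 0.40 ± 0.08, adjusted p = 0.00462 against vehicle and 0.56 ± 0.08, adjusted p = 0.000233 against intact striatum. The repulsive receptors Unc5b and Unc5c were not called against non-dyskinetic striatum, and their means lay on the side of Dcc. Unc5b was 8.59 ± 0.12 in dyskinetic and 8.78 ± 0.04 in non-dyskinetic striatum, and Unc5c 8.78 ± 0.10 and 9.00 ± 0.11. The ligand Ntn1 was not called in any striatal comparison.

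**Figure D2:**
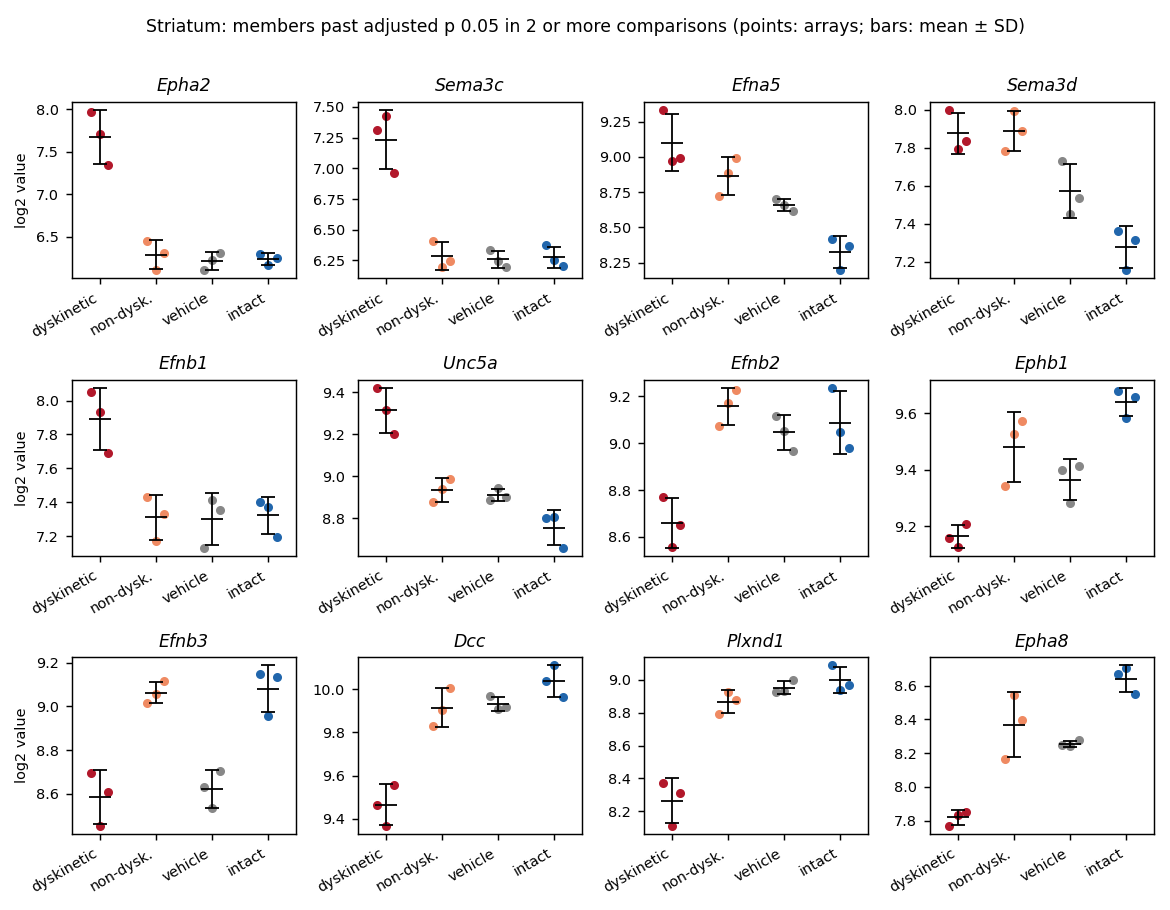
Log2 values of the 12 members called in 2 or more striatal comparisons, with 1 panel per gene and groups in the order dyskinetic, non-dyskinetic, vehicle and intact. Points are arrays and bars are means with SD of 3 arrays, and each panel has its own scale that does not start at 0. The dyskinetic arrays stand above the other groups for Epha2, Sema3c, Efnb1 and Unc5a and below them for Efnb2, Ephb1, Dcc, Plxnd1 and Epha8.

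A gene value taken as the median over probe sets in place of the mean called 7 members, 6 of them among the 11, and ended the calls of Efnb1, Efnb2, Efnb3, Ephb1 and Plxnc1. The ephrin-B genes have 5 or 6 probe sets each. Immediate early genes, rapid markers of neuronal activity, differed between the same groups. Their mean over 9 genes in striatum ran from 10.29 to 10.60 in dyskinetic rats, 8.64 to 9.94 in non-dyskinetic rats, 8.83 to 9.11 in vehicle rats and 8.87 to 9.07 in intact rats, and their part in the members' differences was not tested. Of the striatal projection neuron lists, 1 of 6 direct-pathway markers was higher in dyskinetic than in non-dyskinetic striatum, and 0 of 3 indirect-pathway markers and 0 of 6 markers of both pathways were called. Striatal Th measured 7.77, 7.39 and 6.84 in dyskinetic rats, 6.30, 6.02 and 6.23 in non-dyskinetic rats, 6.69, 6.59 and 6.50 in vehicle rats and 6.21, 6.18 and 6.50 in intact rats, and 2 of 8 dopamine neuron markers were higher in the dyskinetic striatum against each other group.

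Against vehicle rats, dyskinetic striatum differed in 11 members, 5 higher and 6 lower, a share of 16.4% beside 5.18% of all genes (3.63% higher and 1.55% lower). This comparison and the one before share the dyskinetic arrays, so their calls are not independent. Beside the members given above, the GPI-anchored ligand Efna5 was higher, and the repellents Sema3a and Slit2 were lower. Efna5 measured 9.33, 8.97 and 8.99 in dyskinetic rats, 8.73, 8.88 and 8.99 in non-dyskinetic rats, 8.70, 8.66 and 8.62 in vehicle rats and 8.41, 8.20 and 8.37 in intact rats, with dyskinetic arrays above vehicle and intact arrays and overlapping the non-dyskinetic ones. It was called against vehicle (0.44 ± 0.10, adjusted p = 0.0185) and intact (0.77 ± 0.10, adjusted p = 0.000176). Sema3a, which repels axons through Nrp1 and A-class plexins, measured 6.29, 6.44 and 6.74 in dyskinetic and 6.96, 7.61 and 7.41 in vehicle striatum, a difference of -0.84 ± 0.15, adjusted p = 0.00389. Slit2 measured 7.08, 6.83 and 6.95 in dyskinetic and 7.29, 7.56 and 7.38 in vehicle striatum, a difference of -0.45 ± 0.11, adjusted p = 0.029 that was lost in 4 of 6 fits without 1 array. The median over probe sets kept 6 of the 11 calls. In the same comparison 4 of 6 direct-pathway markers were higher, 2 of 5 oligodendrocyte markers were lower and 9 of 9 immediate early genes were higher, and their part was not tested.

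Against intact rats, which differ from dyskinetic rats in the toxin and in the movements, 15 members were called, 8 higher and 7 lower, or 22.4% beside 10.3% of all genes (5.11% higher and 5.19% lower). Those not yet given are Sema3d, Sema5a, Sema5b and Ntng1. Sema3d, a secreted class 3 ligand, measured 8.0, 7.79 and 7.84 in dyskinetic rats, 7.78, 7.99 and 7.89 in non-dyskinetic rats, 7.73, 7.45 and 7.54 in vehicle rats and 7.36, 7.16 and 7.32 in intact rats. Dyskinetic and non-dyskinetic arrays overlapped and both lay above vehicle and intact arrays. It was higher than in intact striatum by 0.60 ± 0.09, adjusted p = 0.000705 in dyskinetic and by 0.61 ± 0.09, adjusted p = 0.043 in non-dyskinetic rats. The membrane-bound Sema5b measured 8.72, 8.56 and 8.45 in dyskinetic and 7.99, 8.04 and 7.97 in intact striatum (0.58 ± 0.10, adjusted p = 0.00225), and its relative Sema5a differed by 0.30 ± 0.09, adjusted p = 0.0384. Ntng1, a GPI-anchored netrin-like protein that does not act through Dcc, measured 7.20, 7.42 and 7.70 in dyskinetic and 7.97, 7.73 and 7.98 in intact striatum (-0.46 ± 0.14, adjusted p = 0.0465). The calls of Sema5a and Ntng1 were lost in 5 and in 4 of 6 fits without 1 array. By family, 4 of 20 semaphorins were higher and 0 lower, and 0 of 10 plexins and neuropilins were higher and 1 lower. In the same comparison 9 of 9 immediate early genes were higher, 1 of 6 direct-pathway markers was higher and 2 lower, 1 of 3 indirect-pathway markers was higher and 1 of 6 markers of both pathways was lower, and their part was not tested.

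In the remaining striatal comparisons few members or none were called. Between non-dyskinetic and vehicle striatum, which asks about levodopa without movements, limma called 0 of 67 members beside 0.0322% of all genes (0% higher and 0.0322% lower). Of the 67 members 3 had an unadjusted p under 0.05, beside 6.7% of all genes. The smallest p belonged to Efnb3 (0.44 ± 0.08, adjusted p = 0.114), Sema3a (-0.62 ± 0.15, adjusted p = 0.295) and Sema3d (0.31 ± 0.09, adjusted p = 0.501). Efnb3 stood higher in the 3 non-dyskinetic than in the 3 vehicle arrays without overlap, but it is named here for its small p and did not pass. Between non-dyskinetic and intact striatum 1 member was called, beside 0.0482% of all genes (0.0241% higher and 0.0241% lower), namely Sema3d, and that call was lost whichever of the 6 arrays was left out. The next by p were Efna5 (0.54 ± 0.10, adjusted p = 0.108), Epha8 (-0.27 ± 0.09, adjusted p = 0.492) and Slit2 (0.33 ± 0.11, adjusted p = 0.505). Between vehicle and intact striatum, the effect of the toxin set against levodopa in rats without it, 1 member was called beside 0.442% of all genes (0.265% higher and 0.177% lower), namely Efnb3. The count was 0 without vehicle array 1, vehicle array 2 or intact array 3 and 2 without vehicle array 3. Slit2 (0.51 ± 0.11, adjusted p = 0.0757), Sema5b (0.47 ± 0.10, adjusted p = 0.0782) and Epha8 (-0.39 ± 0.09, adjusted p = 0.0922) came next.

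Genes around the guidance system were counted from 2 lists, 1 of 43 other cues, coreceptors and adhesion partners and 1 of 54 intracellular effectors. In dyskinetic against non-dyskinetic striatum 3 of the 38 tested cues were higher and 4 lower, and 0 of 53 effectors were higher and 3 lower, or 18.4% and 5.66% beside 5.26% of all genes. The largest among the cues were the heparan sulphate proteoglycan Sdc1 (0.88 ± 0.10, adjusted p = 0.000182), the morphogen Shh (0.87 ± 0.09, adjusted p = 3.67e-05), the Nogo receptor homologue Rtn4rl2 (0.67 ± 0.13, adjusted p = 0.00579) and the adhesion molecule L1cam (-0.59 ± 0.08, adjusted p = 0.000685). The effectors were the kinase Abl1 (-0.40 ± 0.09, adjusted p = 0.019) and the Slit-Robo GTPase-activating proteins Srgap3 (-0.32 ± 0.09, adjusted p = 0.042) and Srgap2 (-0.30 ± 0.08, adjusted p = 0.0444). Against intact striatum the counts were 4 higher and 5 lower cues and 1 higher and 2 lower effectors, and against vehicle 2 and 2 cues and 1 and 1 effectors. For the cues these are 23.7% and 10.5%, above the 10.3% and 5.18% of all genes, and for the effectors 5.66% and 3.77%, below them.

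In the substantia nigra the largest differences separated lesioned from intact rats. Dyskinetic nigra differed from intact nigra in 24 of 65 members, 6 higher and 18 lower, or 36.9% beside 16.1% of all genes (5.52% higher and 10.5% lower). Non-dyskinetic nigra differed in 8, all lower, or 12.3% beside 4.7% of all genes (0.724% higher and 3.97% lower), and vehicle nigra in 17, 6 higher and 11 lower, or 26.2% beside 12.8% of all genes (5.52% higher and 7.26% lower). These 3 comparisons share the intact arrays. Lower members included the ligands Ntn1 and Slit1, the receptors Robo2, Dcc, Epha4 and Epha5, and the membrane-bound semaphorins Sema6b and Sema4g. All 10 dopamine neuron markers were lower in dyskinetic and in vehicle nigra and 9 of 10 in non-dyskinetic nigra. Their mean in nigra was 9.21 ± 0.41 in dyskinetic rats, 9.69 ± 0.14 in non-dyskinetic rats, 8.87 ± 0.18 in vehicle rats and 11.05 ± 0.15 in intact rats (SD, n = 3 arrays each). Dopamine neuron loss and group cannot be told apart against intact nigra. The marker means also differed among the 3 lesioned groups, and their part in comparisons among those groups was not tested.

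Ntn1, which attracts axons through Dcc, measured 8.70, 8.48 and 8.97 in dyskinetic rats, 8.79, 8.81 and 9.01 in non-dyskinetic rats, 8.45, 8.80 and 8.82 in vehicle rats and 9.87, 10.25 and 9.92 in intact rats. The intact arrays lay above all 9 lesioned arrays, and the 3 lesioned groups overlapped. The differences from intact nigra were -1.29 ± 0.14, adjusted p = 7.43e-05 in dyskinetic, -1.14 ± 0.14, adjusted p = 0.000505 in non-dyskinetic and -1.33 ± 0.14, adjusted p = 6.35e-05 in vehicle rats. Its receptor Dcc measured 9.30, 9.19 and 9.24 in dyskinetic rats, 9.56, 9.49 and 9.45 in non-dyskinetic rats, 9.58, 9.59 and 9.52 in vehicle rats and 9.89, 10.15 and 9.96 in intact rats. Here the dyskinetic arrays lay below those of both other lesioned groups, and the intact arrays above all. Against intact nigra the differences were -0.76 ± 0.07, adjusted p = 3.68e-05 in dyskinetic, -0.50 ± 0.07, adjusted p = 0.00138 in non-dyskinetic and -0.44 ± 0.07, adjusted p = 0.00191 in vehicle rats. Dyskinetic nigra was lower than vehicle nigra by -0.32 ± 0.07, adjusted p = 0.0454, with adjusted p = 0.418 without vehicle arrays 1 and 3, and against non-dyskinetic nigra the difference of -0.26 did not pass (adjusted p = 0.16).

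The repellent Slit1 measured 8.72, 9.05 and 9.04 in dyskinetic rats, 9.26, 9.13 and 9.04 in non-dyskinetic rats, 8.90, 9.00 and 9.31 in vehicle rats and 9.90, 10.26 and 10.05 in intact rats, and its receptor Robo2 measured 8.98, 9.09 and 9.11 in dyskinetic rats, 9.35, 9.33 and 9.12 in non-dyskinetic rats, 9.39, 9.20 and 9.15 in vehicle rats and 9.97, 10.16 and 9.98 in intact rats. For both, intact arrays lay above all lesioned arrays. The lesioned groups overlapped for Slit1, while for Robo2 the dyskinetic arrays were the lowest. In dyskinetic, non-dyskinetic and vehicle nigra Slit1 differed from intact by -1.13 ± 0.13, -0.93 ± 0.13 and -1.0 ± 0.13, with adjusted p of 9.19e-05, 0.000893 and 0.000256 in the same order. For Robo2 the differences were -0.98 ± 0.09, -0.77 ± 0.09 and -0.79 ± 0.09, with adjusted p of 2.26e-05, 0.000341 and 9.87e-05. The related receptor Robo1 was called in dyskinetic nigra (-0.33 ± 0.07, adjusted p = 0.00627), and Robo4, which is known from endothelium, was higher there (0.32 ± 0.09, adjusted p = 0.0344). Of 4 endothelial markers 1 was higher in the same comparison, their median difference was 0.13, and their part was not tested.

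Epha5 and Epha4, receptors of the A class, were lower in each lesioned group. Epha5 measured 9.06, 9.13 and 8.97 in dyskinetic rats, 9.12, 9.25 and 9.07 in non-dyskinetic rats, 8.91, 8.99 and 9.09 in vehicle rats and 9.79, 9.97 and 9.81 in intact rats, and Epha4, which binds ephrins of both classes, measured 9.06, 9.00 and 9.16 in dyskinetic rats, 9.24, 9.29 and 9.03 in non-dyskinetic rats, 9.34, 9.09 and 9.28 in vehicle rats and 9.77, 9.87 and 9.80 in intact rats. Intact arrays lay above all others for both, and the lesioned groups overlapped. Epha5 differed from intact by -0.81 ± 0.08 in dyskinetic, -0.71 ± 0.08 in non-dyskinetic and -0.86 ± 0.08 in vehicle nigra (adjusted p = 3.68e-05, 0.000252 and 2.24e-05). Epha4 differed by -0.74 ± 0.09, -0.63 ± 0.09 and -0.58 ± 0.09 in that order of groups (adjusted p = 0.000129, 0.000893 and 0.000877). Epha6 (-0.72 ± 0.15, adjusted p = 0.00694) and Epha10 (-0.57 ± 0.11, adjusted p = 0.0052), further A-class members, were lower in dyskinetic nigra, while Epha2 was higher there (0.35 ± 0.09, adjusted p = 0.0238). Of the B class, Ephb2 measured 8.40, 8.31 and 8.46 in dyskinetic rats, 8.54, 8.51 and 8.48 in non-dyskinetic rats, 8.37, 8.52 and 8.35 in vehicle rats and 8.61, 8.71 and 8.58 in intact rats. It was lower than intact in dyskinetic (-0.25 ± 0.07, adjusted p = 0.0278) and vehicle nigra (-0.22 ± 0.07, adjusted p = 0.0491), calls lost in 4 and in 5 of 6 fits without 1 array. Ephb6, a receptor without kinase activity, was lower in vehicle nigra (-0.25 ± 0.07, adjusted p = 0.0366).

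Sema6b, a membrane-bound ligand of A-class plexins, measured 9.50, 9.68 and 9.62 in dyskinetic rats, 9.72, 9.74 and 9.66 in non-dyskinetic rats, 9.70, 9.66 and 9.60 in vehicle rats and 10.23, 10.32 and 10.06 in intact rats. Sema4g measured 8.24, 8.30 and 8.43 in dyskinetic rats, 8.52, 8.43 and 8.37 in non-dyskinetic rats, 8.49, 8.48 and 8.39 in vehicle rats and 8.66, 8.75 and 8.72 in intact rats. For both, intact arrays lay above all lesioned arrays, which overlapped between groups. Sema6b differed from intact by -0.60 ± 0.08 in dyskinetic, -0.50 ± 0.08 in non-dyskinetic and -0.55 ± 0.08 in vehicle nigra (adjusted p = 0.000249, 0.00205 and 0.000547). For Sema4g these were -0.38 ± 0.07, -0.27 ± 0.07 and -0.26 ± 0.07 (adjusted p = 0.00288, 0.0447 and 0.0297), and the non-dyskinetic call was lost in 5 of 6 fits without 1 array. Sema4f, of the same class as Sema4g, measured 7.29, 7.86 and 7.59 in dyskinetic rats, 7.75, 7.76 and 7.67 in non-dyskinetic rats, 7.73, 7.55 and 7.60 in vehicle rats and 8.08, 8.16 and 8.01 in intact rats. It was called in dyskinetic (-0.50 ± 0.11, adjusted p = 0.0103) and vehicle nigra (-0.46 ± 0.11, adjusted p = 0.0208), with intact arrays above all others.

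**Figure D3:**
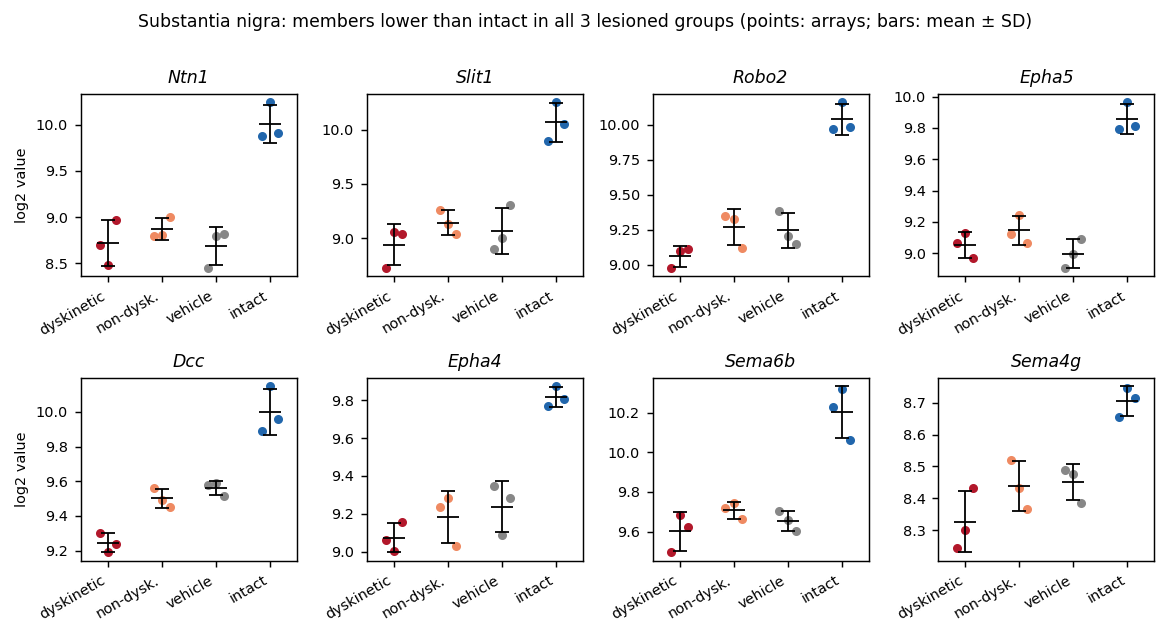
Log2 values in substantia nigra of the 8 members called against intact nigra in each of the 3 lesioned groups, 1 panel per gene, with groups in the order dyskinetic, non-dyskinetic, vehicle and intact. Points are arrays, bars are means with SD of 3 arrays, and the scales differ between panels and do not start at 0. The 3 intact arrays stand above the 9 lesioned arrays in every panel, and for Dcc the dyskinetic arrays stand below the other lesioned arrays.

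The other lower members in dyskinetic nigra were the receptor Plxna3 (-0.57 ± 0.10, adjusted p = 0.00188), the ligand Sema6d (-0.35 ± 0.07, adjusted p = 0.00568) and Efna5, which measured 8.35, 8.26 and 8.36 in dyskinetic rats, 8.65, 8.49 and 8.42 in non-dyskinetic rats, 8.67, 8.73 and 8.60 in vehicle rats and 8.55, 8.64 and 8.67 in intact rats. Efna5 was lowest in the dyskinetic arrays, and it was called against intact (-0.30 ± 0.07, adjusted p = 0.015) and against vehicle nigra (-0.34 ± 0.07, adjusted p = 0.0356, or adjusted p = 0.248 without vehicle arrays 1 and 3). In striatum Efna5 was higher, not lower, in dyskinetic than in intact rats. Beside Epha2 and Robo4, the higher members were Sema3d (0.38 ± 0.12, adjusted p = 0.042), Unc50 (0.35 ± 0.09, adjusted p = 0.0227), Sema7a (0.24 ± 0.07, adjusted p = 0.0407), the ligand of Plxnc1, and Sema3c. The call of each of these 6 higher members was lost in 3 to 5 of 6 fits without 1 array. Sema3c measured 8.35, 8.05 and 8.18 in dyskinetic rats, 8.31, 8.13 and 8.06 in non-dyskinetic rats, 8.18, 8.38 and 8.26 in vehicle rats and 7.94, 7.79 and 7.95 in intact rats, with intact arrays below all lesioned arrays. It was called in dyskinetic (0.30 ± 0.09, adjusted p = 0.0425) and vehicle nigra (0.38 ± 0.09, adjusted p = 0.0187). The remaining calls in dyskinetic nigra, Plxna4 (-0.23) and Ntn3 (-0.19), were the smallest.

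In vehicle nigra the higher members were, beside Sema3c, Sema3b, Plxnb1, Plxnb3, Epha7 and Unc5b. Plxnb1, the receptor of Sema4d, measured 9.61, 9.67 and 9.65 in dyskinetic rats, 9.79, 9.90 and 9.96 in non-dyskinetic rats, 9.96, 9.95 and 10.02 in vehicle rats and 9.69, 9.75 and 9.70 in intact rats, highest in the vehicle arrays apart from an overlap with the non-dyskinetic ones and without overlap between vehicle and dyskinetic arrays. It was 0.27 ± 0.06, adjusted p = 0.0134 against intact. Sema3b measured 7.43, 7.34 and 7.32 in dyskinetic rats, 7.52, 7.72 and 7.67 in non-dyskinetic rats, 7.76, 7.61 and 7.83 in vehicle rats and 7.56, 7.31 and 7.38 in intact rats (0.32 ± 0.08, adjusted p = 0.0284). Epha7 measured 8.85, 8.72 and 8.76 in dyskinetic rats, 9.10, 9.09 and 9.04 in non-dyskinetic rats, 9.31, 9.17 and 9.13 in vehicle rats and 9.09, 8.89 and 8.85 in intact rats (0.26 ± 0.08, adjusted p = 0.0435). For these genes the vehicle arrays lay above the intact and the dyskinetic arrays. Plxnb3, a receptor of Sema5a, differed by 0.37 ± 0.08, adjusted p = 0.0104 and Unc5b by 0.39 ± 0.12, adjusted p = 0.0463.

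Single arrays bore on these counts. Without intact array 2 the members called fell to 13 in dyskinetic and 8 in vehicle against intact nigra, and the vehicle count was 11 without vehicle array 1 and 11 without intact array 3. The count over all genes moved as well. Over the 6 fits without 1 array it ran from 1005 to 1640 in dyskinetic nigra, beside 1996 with all arrays. In vehicle nigra it ran from 631 to 1739, beside 1589. Without both vehicle arrays that stood apart, 7 of the 17 vehicle calls remained, namely Ntn1, Slit1, Robo2, Epha4, Epha5, Sema6b and Plxnb3. Over the 9 lesioned arrays the 8 members called in non-dyskinetic nigra were set against the mean of the dopamine neuron markers. Pearson's r ran from -0.04 for Dcc to 0.528 for Sema6b (exact permutation p, two-sided, 0.137 to 0.928, adjusted over the 8 relations 0.637 to 0.928), and Spearman's rho from -0.133 to 0.733 (adjusted exact p 0.249 to 0.81). The permutation moved arrays freely between the 3 groups, so its p does not account for differences between groups. With the means of the 3 groups removed r ran from -0.504 for Epha5 to 0.929 for Sema4g, for which no p was computed. Without the 2 arrays farthest from the median of the markers r ran from -0.391 to 0.532. For Slit1 r was 0.272 over all 9 arrays, 0.168 with the group means removed and -0.081 without those 2 arrays. Leaving out vehicle arrays 1 and 3 was decided after the data were seen, and it leaves 1 vehicle array. Without vehicle arrays 1 and 3, over 7 arrays, r ran from 0.234 for Dcc to 0.743 for Slit1, and Slit1 alone passed (adjusted exact p = 0.0365, against 0.262 to 0.593 for the others). Spearman's rho of Slit1 was 0.893 (adjusted exact p = 0.0984), and r was 0.551 without the 2 farthest of these arrays. Other cell types also differed between lesioned and intact nigra. Of 6 microglial markers 3 were higher in dyskinetic rats, 2 in non-dyskinetic and 1 in vehicle nigra, and of 5 oligodendrocyte markers 2, 0 and 1 in the same order. The nigral microglial mean was 9.39 ± 0.12 in dyskinetic, 9.40 ± 0.19 in non-dyskinetic rats, 9.42 ± 0.10 in vehicle rats and 9.06 ± 0.03 in intact rats (SD, n = 3 arrays each), and its part in the members' differences was not tested. Of 4 markers of oligodendrocyte precursors 1 was higher in dyskinetic and 3 in vehicle nigra. Immediate early genes were higher than intact in 8 of 8 cases in dyskinetic and 6 of 8 in vehicle nigra, and 0 in non-dyskinetic nigra. The vehicle counts of these cell types and genes include vehicle arrays 1 and 3. Without both, fewer precursor markers and immediate early genes were called in vehicle nigra, in a fit with 1 vehicle array left.

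Among lesioned rats the nigra differed less in these genes. Dyskinetic against vehicle nigra gave 5 members, all lower, or 7.69% beside 2.22% of all genes (0.764% higher and 1.46% lower). They were Dcc and Efna5, given above, Epha7 (-0.43 ± 0.08, adjusted p = 0.0191), Plxnb1 (-0.33 ± 0.06, adjusted p = 0.0194) and Sema3b (-0.37 ± 0.08, adjusted p = 0.0474). The count was 0 without dyskinetic array 3, 1 without either of the other dyskinetic arrays, 0 without vehicle array 1, 16 without vehicle array 2, 2 without vehicle array 3 and 0 without vehicle arrays 1 and 3, and it was 29 with array weights. In this comparison 3 of 8 immediate early genes were higher, 1 of 8 without vehicle arrays 1 and 3, and their part was not tested. Of 10 dopamine neuron markers 1 was higher and 1 lower in the same comparison (median difference 0.40), and their part was not tested. Over the 6 fits of that comparison without 1 array the count over all genes ran from 34 to 986, beside 276 with all arrays. With array weights the count over all genes is not given, so the 29 is not read as a result about the members. Between dyskinetic and non-dyskinetic nigra limma called 0 of 65 members, beside 0.241% of all genes (0.169% higher and 0.0724% lower). Of the 65 members 15 had an unadjusted p under 0.05, as did 14.6% of all genes. The smallest p among the members belonged to Plxna4 (-0.28 ± 0.06, adjusted p = 0.109), Epha10 (-0.49 ± 0.11, adjusted p = 0.11) and Epha7 (-0.30 ± 0.08, adjusted p = 0.129), each lower in dyskinetic nigra. Their arrays did not overlap between the groups, but these members were picked by p and did not pass, so the separation adds no evidence. Of 10 dopamine neuron markers 1 was lower in the same comparison, their median difference was -0.47, and their part was not tested. Between non-dyskinetic and vehicle nigra limma called 0 members and 0% of all genes. An unadjusted p under 0.05 was found in 4 of 65 members and in 999 of 12436 genes, or 8.03% of all genes. Without vehicle arrays 1 and 3 it called 0 members and 1 gene, and 1 member and 697 genes had an unadjusted p under 0.05. Unc5cl (0.19 ± 0.06, adjusted p = 0.529), Ntng2 (-0.20 ± 0.07, adjusted p = 0.536) and Sema5a (-0.23 ± 0.09, adjusted p = 0.548) came nearest.

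In nigra most called genes of the related lists were lower than intact, while the lists' medians lay near 0 in non-dyskinetic and vehicle rats (-0.03 and 0.01 for the cues, -0.02 and 0.04 for the effectors). Of 40 other cues 0 were higher and 10 lower in dyskinetic against intact nigra, 0 and 7 in non-dyskinetic and 1 and 8 in vehicle nigra, or 25%, 17.5% and 22.5% beside 16.1%, 4.7% and 12.8% of all genes. Of 53 effectors 2 were higher and 12 lower in dyskinetic, 1 and 5 in non-dyskinetic and 3 and 6 in vehicle nigra, or 26.4%, 11.3% and 17% beside the same shares of all genes. Without vehicle arrays 1 and 3 the vehicle counts were 1 and 7 cues and 0 and 5 effectors, beside 4.36% of all genes. In dyskinetic nigra the largest among the cues were Gfra1, a receptor of glial cell line-derived neurotrophic factor (-1.09 ± 0.09, adjusted p = 1.45e-05), the ligand Wnt5a (-0.89 ± 0.09, adjusted p = 7.43e-05), the adhesion molecule Cntn4 (-0.86 ± 0.13, adjusted p = 0.000706) and L1cam (-0.85 ± 0.10, adjusted p = 0.000196). Among the effectors they were Dpysl4 (-1.01 ± 0.08, adjusted p = 1.17e-05), Dpysl5 (-0.93 ± 0.14, adjusted p = 0.000694) and Crmp1 (-0.53 ± 0.07, adjusted p = 0.000249), collapsin response mediator proteins, of which the family transmits the semaphorin signal, and the actin-binding Ablim3 (-0.72 ± 0.11, adjusted p = 0.000979). In dyskinetic against vehicle nigra 1 cue and 3 effectors were lower, the cue being the receptor Met (-0.52 ± 0.08, adjusted p = 0.0114), and without vehicle arrays 1 and 3 limma called 0 of either list, beside 0.153% of all genes.

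To ask whether a difference was the same in both tissues, the 24 arrays were fitted together, arrays of 1 animal being treated as a random block, for 65 members among 12114 genes. For dyskinetic against non-dyskinetic rats 3 members differed between tissues, 2 more positive in striatum and 1 more negative, or 4.62% beside 1.47% of all genes (1.26% more positive and 0.206% more negative). Epha2 differed by 1.38 in striatum and 0.22 in nigra, a tissue difference of 1.14 ± 0.16, adjusted p = 0.000194. Sema3c differed by 0.95 in striatum and 0.03 in nigra (0.92 ± 0.14, adjusted p = 0.000437). Plxnd1 differed by -0.60 in striatum and -0.05 in nigra (-0.56 ± 0.13, adjusted p = 0.0205), a call lost in 5 of 12 fits without 1 array.

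For dyskinetic against intact rats 22 members differed between tissues, 18 more positive in striatum and 4 more negative, or 33.8% beside 12.6% of all genes (7.84% more positive and 4.74% more negative). The median over probe sets called 14. In the same test 8 of 8 dopamine neuron markers were more positive in striatum and 4 of 5 oligodendrocyte markers more negative, and their part was not tested. The largest differed in where they were called. Slit1 (0.05 in striatum and -1.13 in nigra), Ntn1 (-0.24 and -1.29), Epha5 (0.11 and -0.81), Robo2 (-0.23 and -0.98) and Epha4 (-0.05 and -0.74) were called in nigra and not in striatum. Efna5 (0.77 in striatum and -0.30 in nigra) was called in both with opposite signs. Epha2 (1.43 and 0.35) was called in both with the same sign, and Sema5b (0.58 and -0.33), Efnb1 (0.57 and -0.20) and Unc5a (0.56 and -0.14) in striatum only. For these 10 the adjusted p of the tissue difference ran from 2.99e-06 to 0.0156.

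**Figure D4:**
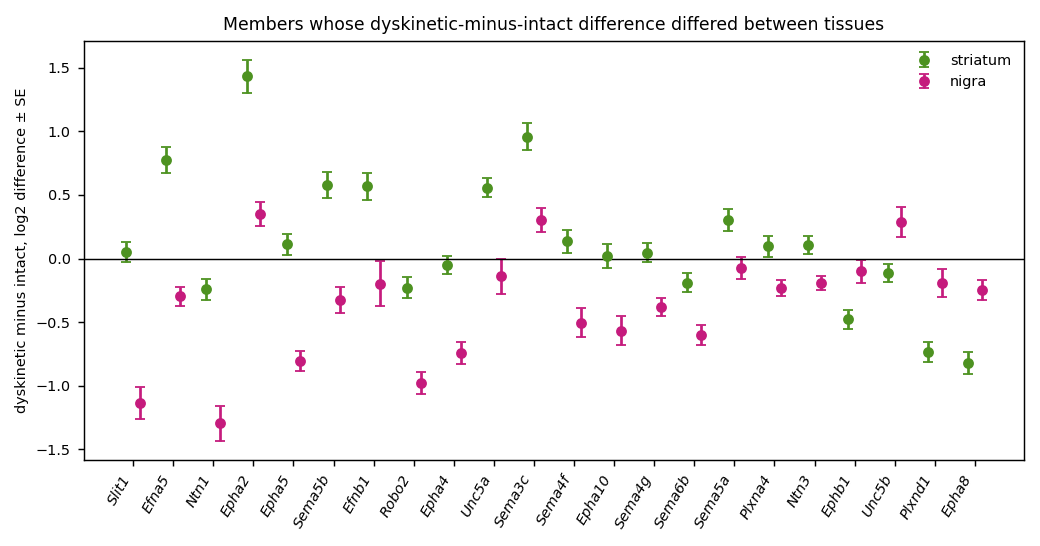
Difference of dyskinetic from intact rats in striatum (green) and nigra (magenta) for the 22 members whose difference was not the same in both tissues, ordered by the tissue difference. Points are log2 differences and bars their standard errors. Slit1, Ntn1, Epha5, Robo2 and Epha4 lie well below 0 in nigra and near or closer to 0 in striatum, and Epha2 and Sema3c lie higher in striatum.

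For vehicle against intact rats 10 members differed between tissues, 8 more positive in striatum and 2 more negative, or 15.4% beside 5.72% of all genes (3.91% more positive and 1.81% more negative). They were Ntn1 (1.20 ± 0.15, adjusted p = 1.76e-05), Slit1 (0.97 ± 0.14, adjusted p = 7.68e-05), Epha5 (0.89 ± 0.11, adjusted p = 5.65e-06), Sema5b (0.77 ± 0.15, adjusted p = 0.0018), Robo2 (0.68 ± 0.11, adjusted p = 0.000334), Epha4 (0.56 ± 0.10, adjusted p = 0.00144), Sema6b (0.46 ± 0.09, adjusted p = 0.00376), Ephb1 (-0.43 ± 0.11, adjusted p = 0.0178), Epha8 (-0.41 ± 0.11, adjusted p = 0.0337) and Dcc (0.34 ± 0.09, adjusted p = 0.0323). Without both nigral vehicle arrays that stood apart 8 members were called, 7 of them among these 10.

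Levels of the same gene were last set side by side in the 2 tissues, as a description only, since the arrays of each tissue appear to have been normalized apart and each value was therefore taken relative to the median gene of its array. Of 65 members 8 were more than a doubling higher in striatum and 5 more than a doubling lower, 20% beside 7.99% of all genes (5.27% higher and 2.72% lower). The 8 were Efnb2 (2.25), the repellent Slit3 (2.05), Epha4 (1.90), Robo2 (1.58), Plxnd1 (1.51), Plxna2 (1.47), Epha8 (1.27) and Epha7 (1.18). The members lowest in striatum relative to nigra were Plxnb3 (-1.41), Slit1 (-1.32), Sema3c (-1.27), Ephb2 (-1.22), Sema6d (-1.05), Plxna3 (-0.94), Epha10 (-0.90) and the coreceptor Nrp1 (-0.84). Each of these 16 kept its sign in 10 of the 10 animals that gave both tissues. They were picked by means that include these animals, so that agreement follows largely from the choice. Members with small differences, such as Sema4b (-0.22) and Robo1 (0.33), kept their sign in 10 of 10 animals as well. The receptor Robo2 thus stood on the same side as the ligand Slit3 and on the opposite side from Slit1 and Slit2 (-0.54). The Eph receptors Epha4 and Ephb2 also stood on opposite sides. By family, the median was 0.42 over 7 ephrins, 0.14 over 12 Eph receptors, -0.22 over 19 semaphorins and -0.30 over 10 plexins and neuropilins, beside 0.03 over all genes. For Sema3c, which was higher in dyskinetic striatum, the difference ran from -1.81 to -0.26 over the 10 animals.

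**Figure D5:**
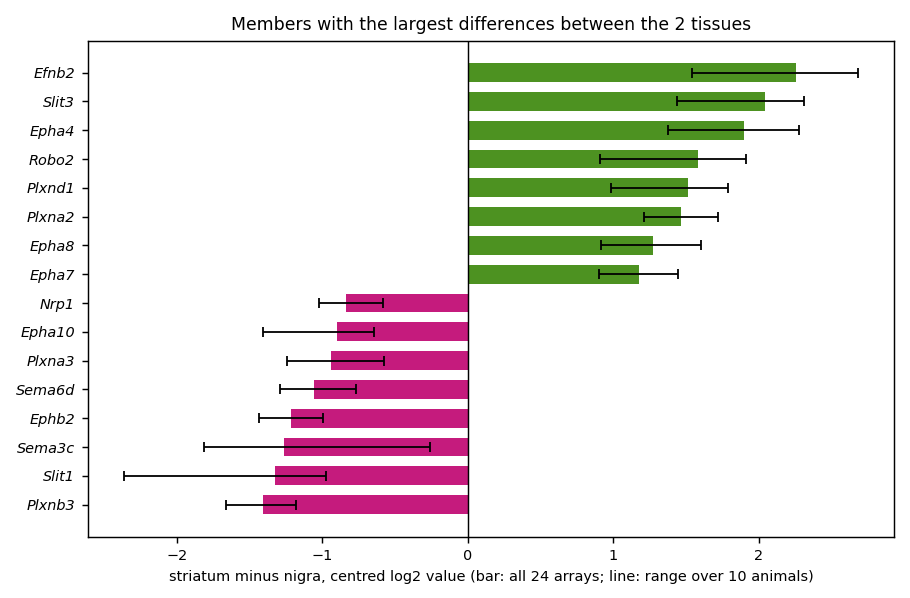
Striatum minus nigra difference of the 16 members with the largest differences in either direction, in log2 units relative to the median gene of each array. Bars are means over 12 arrays per tissue, and lines run from the lowest to the highest of 10 animals with both tissues. Efnb2, Slit3 and Epha4 reach furthest towards striatum and Plxnb3, Slit1 and Sema3c furthest towards nigra.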

How the data were processed

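RNA from punches of striatum and substantia nigra was hybridised to Affymetrix arrays read as exon-level probe sets, 12 arrays per tissue. The authors deposited log2 values made by the robust multi-array average (RMA) with oligo 1.34 in R 3.2.3, per the submitters' processing notes. Sorted values differed by 0.0033 to 0.078 on average between arrays of a tissue and by 0.1965 to 0.3369 between tissues, so tests were run within a tissue or on differences between tissues in a contrast. RMA shrinks differences of dim probe sets, and precision is limited by how few arrays there are.

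In the annotation of 2010 a single gene is named by 172924 of 213067 probe sets. Older symbols were updated through RefSeq's genes of GRCr8, which hold all 69 members. By the annotated symbol 68 matched, and Ntn4 matched after its symbol was updated. Efna3, Ephb4, Plxna1 and Unc5d were not analysed here.

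Group means were fitted with limma 3.58.1 (lmFit, eBayes) in R 4.3.3 after reading the files with data.table, version 1.17.8, and p was adjusted by Benjamini and Hochberg. The tissue difference used the animal as a random block (correlation 0.155). Scripts in python 3.11.15 with numpy 2.4.6, pandas 2.3.3 and matplotlib 3.10.9 made the tables and plots, and the fits were tested on simulated data. Promoter windows come from RefSeq. Members, gene lists and tests were chosen with earlier results of these data known.

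Named are the members called in each comparison (the 20 largest where more than 20 were called, and the 3 with the smallest p besides where fewer than 5 were), up to 10 per tissue difference, 8 per tissue by level, and values per array where 2 or more comparisons of a tissue called a member. Of the related lists up to 4 genes per comparison are named. Ephb2, Sema7a, Plxna4 and Ntn3 in dyskinetic nigra and the members high in single vehicle arrays were named after their values were seen. The rule also asked for the highest and lowest levels, which are not given because probe sets of different genes cannot be compared. Alternatives were the median over probe sets, no filter on low values, only the 6 arrays compared, array weights, trended variances, the replicate number as a block, no animal block, centring, and each array left out.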

Additional observations from a re-analysis of the deposited data

Results flagged for a closer look

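The differences between conditions that were not the same in striatum and nigra, by the test of the tissue difference itself in limma over 24 arrays, are listed here as striatum minus nigra. For dyskinetic minus non-dyskinetic rats they were 1.14 for Epha2, 0.92 for Sema3c and -0.56 for Plxnd1. For dyskinetic minus intact rats, ligands gave 1.19 for Slit1, 1.07 for Efna5, 1.06 for Ntn1, 0.89 for Sema5b, 0.77 for Efnb1, 0.66 for Sema3c and 0.61 for Sema4f. The other ligands gave 0.42 for Sema4g, 0.40 for Sema6b, 0.37 for Sema5a and 0.30 for Ntn3. Receptors more positive in striatum in the same comparison gave 1.06 for Epha2, 0.93 for Epha5, 0.75 for Robo2, 0.70 for Epha4, 0.69 for Unc5a, 0.58 for Epha10 and 0.32 for Plxna4. Those more negative in striatum gave -0.57 for Epha8, -0.54 for Plxnd1, -0.41 for Unc5b and -0.38 for Ephb1. For vehicle minus intact rats the values were 1.20 for Ntn1, 0.97 for Slit1, 0.89 for Epha5, 0.77 for Sema5b, 0.68 for Robo2, 0.56 for Epha4, 0.46 for Sema6b, 0.34 for Dcc, -0.41 for Epha8 and -0.43 for Ephb1.

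Leaving out single arrays ended some of these. Of the 12 fits for each, 9 ended the dyskinetic-minus-intact tissue difference of Sema5a and 9 that of Unc5b, 8 that of Plxna4, 6 that of Ephb1 and 2 that of Efnb1. In vehicle minus intact rats 8 ended that of Epha8, 7 that of Dcc and 2 that of Ephb1.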

How the results depend on the processing

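The members' calls were repeated 1743 times, of which 1433 kept the call, 310 lost it and 0 reversed, and members named without a call were not repeated singly. The median over probe sets gave 7 members in dyskinetic minus non-dyskinetic and 6 in dyskinetic minus vehicle striatum (11 each in the report), 0 in non-dyskinetic minus intact and 0 in vehicle minus intact striatum, 2 in dyskinetic minus vehicle nigra and 14 in the tissue difference of dyskinetic minus intact rats. With only the 6 arrays compared the counts were 0 for non-dyskinetic minus intact and 2 for vehicle minus intact striatum and 0 for dyskinetic minus vehicle nigra, and with no filter 0 for the first and 3 for the last. Array weights gave 5 in vehicle minus intact striatum and, in nigra, 1 in dyskinetic minus non-dyskinetic, 29 in dyskinetic minus vehicle, 13 in non-dyskinetic minus intact and 29 in vehicle minus intact rats. Without nigral vehicle arrays 1 and 3, an alternative chosen after seeing the data for members, related lists and the marker relation, the last comparison gave 7 and dyskinetic minus vehicle 0. Same-numbered arrays of different groups are different animals, so the numbers do not pair them by animal. Their deviations correlated from -0.268 to 0.383 in striatum and from -0.29 to 0.294 in nigra. The mean correlation was 0.064 in striatum and 0.03 in nigra, against -0.032 and -0.015 for arrays of different numbers. Whether same-numbered arrays shared a batch was not tested. With the replicate block the count was 2 in vehicle minus intact striatum and 2 in dyskinetic minus vehicle nigra, and in the other comparisons it stayed within 1.5 times. Trended variances, centring and no animal block moved no count past that. Leaving out 1 array gave 9 to 11, 8 to 11 and 13 to 16 members in dyskinetic minus non-dyskinetic, vehicle and intact striatum, 0 to 0 in non-dyskinetic minus intact and 0 to 2 in vehicle minus intact striatum. Over all genes these fits called 293 to 945, 382 to 636, 720 to 1232, 0 to 16 and 25 to 43 in that order. In nigra leaving out 1 array gave 0 to 16 members in dyskinetic minus vehicle, 13 to 20 in dyskinetic minus intact, 7 to 9 in non-dyskinetic minus intact and 8 to 21 in vehicle minus intact rats. Over all genes these were 34 to 986, 1005 to 1640, 224 to 638 and 631 to 1739. The tissue differences gave 2 to 4, 17 to 21 and 7 to 13 members, beside 88 to 302, 1043 to 1608 and 434 to 786 of all genes. For the median over probe sets, array weights, no filter, the replicate block and the fits of only 6 arrays, counts over all genes are not given. The members' counts in those settings are therefore not read as results about the members. The causes of these shifts were not tested. With 3 arrays per group a difference below about the size of the called ones may be missed, p-values measure the spread between animals within each tissue, and dim members such as Robo3 and Epha1 were not tested.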
